A study of Homo sapiens with 6 samples.

Results

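The genes described here are 10 of the enzymes and carriers that turn glucose into lactate and move it out of the cell, chosen by name because enolase 1 is a glycolytic enzyme and lactate is the source of histone lactylation. They are HK2, GPI, PFKM, ALDOA, GAPDH, ENO1, PKM, LDHA, LDHB and SLC16A3, 10 of 19866 protein-coding genes on the 24 chromosomes of GRCh38. For each gene, every peak of 6 deposited peak lists was collected at the gene ends (within 1 kb of either annotated end), in the gene body and up to 50 kb beyond it.

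The libraries were CUT&Tag profiles of HepG2, an established human hepatocellular carcinoma line, an assay in which antibody-bound sites are cut and labelled for sequencing by a tethered transposase. The antibodies were against ENO1 (the enzyme itself), H4K12la (histone H4 lactylated at lysine 12) or HDAC1 (a histone deacetylase), with 2 replicate libraries for each of the 3 targets. All libraries came from the same line with no treatment named in the labels, and no library from a control antibody was analysed here. The labels do not say that replicates were separate cultures, so differences between them may be technical. Sequencing depth is unknown, and the number of peaks ranged from 1189 and 1592 in the ENO1 lists to 7568 in H4K12la replicate 2. A gene without a peak may therefore hold signal below the peak caller's threshold. Of 11 hepatocyte marker genes 1, HNF4A, carried a gene-end peak in both replicates of a target (H4K12la). Of 8 markers of blood, fibroblasts and endothelium 0 did. Over all protein-coding genes the shares were 10.5% for H4K12la, 8.18% for HDAC1 and 0.0654% for ENO1. These marker counts therefore say nothing of cell type, and peak lists do not measure expression.

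Glycolysis splits glucose into pyruvate in the cytosol, and lactate dehydrogenase then reduces pyruvate to lactate, which leaves the cell through monocarboxylate transporters. Lactate also feeds the lactylation of histone lysines, a modification that class I histone deacetylases such as HDAC1 can remove. Tumour cells, hepatocellular carcinoma among them, commonly run this route at a high rate even with oxygen present. Its genes are classical targets of HIF1, which binds the core ACGTG or GCGTG, and of MYC, which binds CACGTG.

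For 4 of the genes a gene-end peak reached into a promoter window held in the RefSeq promoter table, and these promoters are shown because they let the position of the peak be read on the sequence. Each is 300 bases of GRCh38.p14, from 250 bases before to 50 after the start site, written 5′ to 3′ along the gene. In ENO1 and ALDOA the capitals mark the bases under the HDAC1 peaks of both replicates, 134 and 72 bases.
ENO1 (chr1:8878637-8878936, minus strand): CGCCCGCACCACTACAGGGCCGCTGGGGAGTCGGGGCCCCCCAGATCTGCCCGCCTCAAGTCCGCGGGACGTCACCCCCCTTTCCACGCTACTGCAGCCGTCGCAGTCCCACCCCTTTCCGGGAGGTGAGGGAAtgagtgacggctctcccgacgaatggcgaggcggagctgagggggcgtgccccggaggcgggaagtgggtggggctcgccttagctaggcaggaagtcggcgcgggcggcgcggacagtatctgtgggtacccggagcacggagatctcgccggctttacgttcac
ALDOA (chr16:30065510-30065809, plus strand): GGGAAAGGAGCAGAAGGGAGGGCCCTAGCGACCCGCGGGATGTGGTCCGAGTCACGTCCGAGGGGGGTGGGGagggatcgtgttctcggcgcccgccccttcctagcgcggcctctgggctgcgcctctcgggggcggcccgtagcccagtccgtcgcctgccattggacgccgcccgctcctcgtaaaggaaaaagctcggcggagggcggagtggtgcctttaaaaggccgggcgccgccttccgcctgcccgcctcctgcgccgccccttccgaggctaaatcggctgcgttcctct
Of the windows in the table, 3 of 7 for PFKM lay wholly under H4K12la peaks of both replicates, and 1 of 2 for LDHA under the peak of replicate 2, the one replicate with a gene-end peak there. The window shown for each gene is the one whose start lies nearest the mean summit of its gene-end peaks. Here the capitals mark matches on either strand, of the GC box GGGCGG in PFKM and of the MYC and HIF1 motifs above in LDHA.
PFKM (chr12:48105856-48106155, plus strand): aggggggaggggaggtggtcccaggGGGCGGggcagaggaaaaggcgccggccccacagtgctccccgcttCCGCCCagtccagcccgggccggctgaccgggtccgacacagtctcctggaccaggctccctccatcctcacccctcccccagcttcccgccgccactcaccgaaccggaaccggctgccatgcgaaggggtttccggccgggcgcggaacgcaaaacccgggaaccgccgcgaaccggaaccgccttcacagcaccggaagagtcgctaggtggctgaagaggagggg
LDHA (chr11:18394313-18394612, plus strand): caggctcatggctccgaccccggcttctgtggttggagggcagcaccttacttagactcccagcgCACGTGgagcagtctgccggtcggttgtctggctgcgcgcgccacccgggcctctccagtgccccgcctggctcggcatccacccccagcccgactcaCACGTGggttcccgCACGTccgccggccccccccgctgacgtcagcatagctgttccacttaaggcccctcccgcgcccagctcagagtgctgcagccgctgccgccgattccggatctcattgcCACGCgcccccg
The LDHA window held 2 copies of CACGTG, 87 and 185 bases before the start, a motif found in 7.26% of all 35116 promoters of this length. CACGTG was absent from the windows shown for ENO1, ALDOA and PFKM. The LDHA window held ACGTG or GCGTG 6 times, 4 of them inside the CACGTG copies, which contain ACGTG on both strands. ENO1 held this core 2 times, 166 and 72 bases before the start. The first copy lay under the HDAC1 peaks of both replicates and the second under that of replicate 2 alone. ALDOA held the core 1 time, under the peaks of both replicates, and the PFKM window lacked it. The core is present in 48.4% of all promoters. GGGCGG, the GC box bound by SP1, was present 5 times in ALDOA, 2 times in PFKM and 1 time in ENO1. It was absent from the LDHA window and present in 45% of all promoters. CCAAT was present 1 time in ALDOA, in none of the other windows shown, and in 34.6% of all promoters. TATAAA, which 11.5% of promoters hold, was in none of the 4. The GC content was 69.7% in ENO1, 70.7% in ALDOA, 71.3% in PFKM and 70.0% in LDHA, in the windows shown, against a median of 58.7% over all promoters. The 3 PFKM windows outside the peaks had 37.0% to 46.3%. Windows outside the peaks had 64.0% to 82.7% in SLC16A3, 70.7% in GAPDH and 65.0% in LDHA. They had 56.7% in GPI and 55.7% to 56.0% in ALDOA. The median over all 24 windows of the 10 genes was 68.3%. These matches describe letters and say nothing of binding. All 10 genes had an entry in the promoter table, 24 start sites in all. The windows of GPI, GAPDH and SLC16A3 held there were not touched by their gene-end peaks, so none is shown.

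H4K12la marked the ends of PFKM, GPI and SLC16A3 in both replicates, HDAC1 marked the ends of ENO1, ALDOA and GPI, and ENO1 marked none. GPI carried both H4K12la and HDAC1 at a gene end, 1 of the 5 members with either target, where 20.5% of all genes with either carried both (631 of 3072). Per library, 3 and 4 of the 10 genes had a gene-end peak of H4K12la in replicates 1 and 2 (all genes, 13.5% and 19.5%). For HDAC1 the numbers were 4 and 3 (all genes, 14.8% and 10.1%), so these targets differed by no more than their replicates. The ENO1 lists had 0 and 0 (all genes, 0.166% and 0.101%). A comparison of 2 libraries with 2 cannot go below p = 0.333 in a two-sided exact permutation test, so none was run.

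Against all protein-coding genes, 3 of 10 for H4K12la (30%) stands beside 10.5%, 3 of 10 for HDAC1 (30%) beside 8.18%, and 0 of 10 for ENO1 beside 0.0654%. At least 1 of H4K12la and HDAC1 was present in both replicates at 5 of the 10 genes and at 15.5% of all genes, and both targets at 1 of the 10 and at 3.18% of all. The members had a median length of 22.3 kb and all protein-coding genes one of 24.5 kb. With only peaks at a -log10 q of 5 or more, H4K12la was left at 1 of the 10 genes (6.11% of all genes) and HDAC1 at 2 (6.31%). With the 1189 strongest peaks of each list H4K12la was left at 0 (1.16%) and HDAC1 at 1 (1.47%). With 10 genes chosen by name the counts are a description, and 1 gene more or less moves a share by 10 percentage points.

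**Figure D1:**
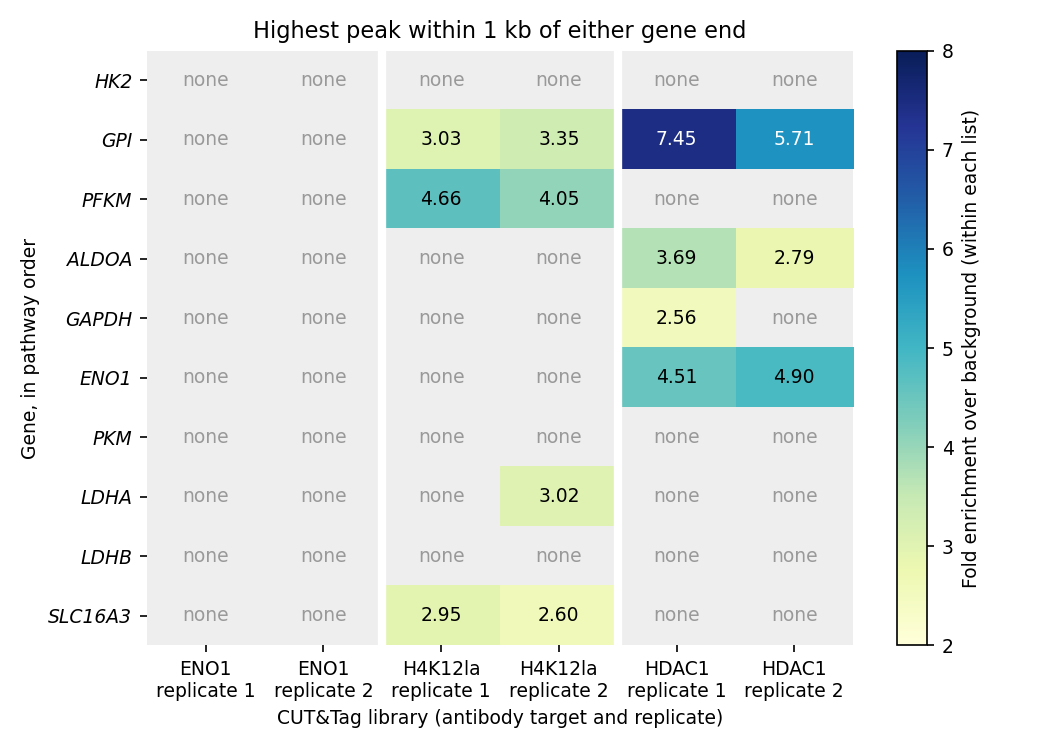
Highest fold enrichment of a peak within 1 kb of either end of each gene (rows, in pathway order) in each of the 6 CUT&Tag libraries (columns); grey cells had no peak. Values run from 2.56 at GAPDH to 7.45 at GPI, both in HDAC1 replicate 1, and both ENO1 columns are empty.

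**Figure D2:**
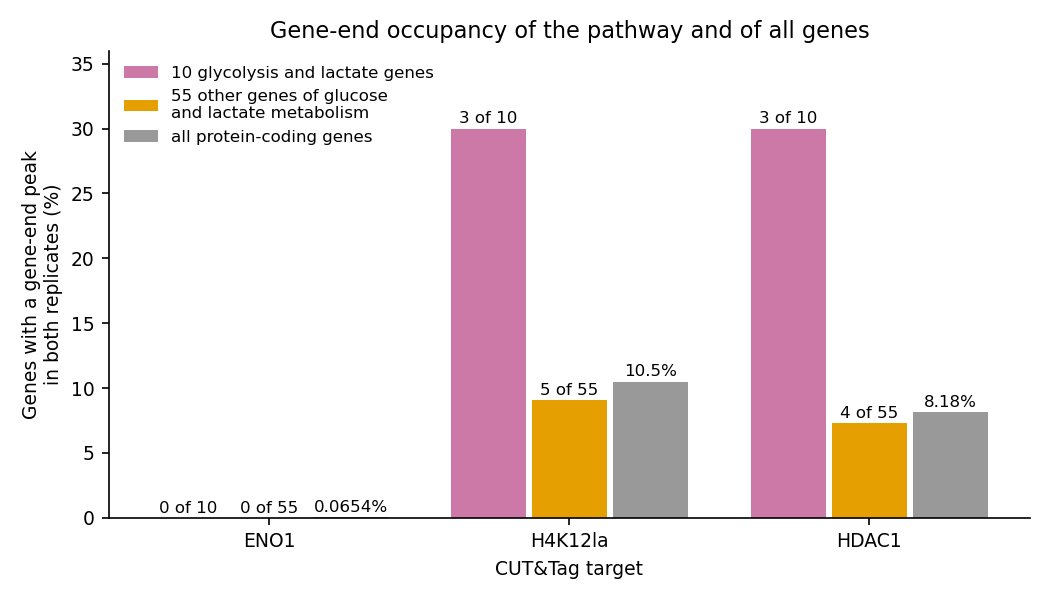
Percent of genes with a gene-end peak in both replicates of each target, for the 10 glycolysis and lactate genes, 55 other genes of glucose and lactate metabolism, and all 19866 protein-coding genes. The 10 genes stand at 30% for H4K12la and HDAC1, the 55 others near the level of all genes, and ENO1 at or near 0 in every set.

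The fold enrichment of a peak, its signal at the summit over the peak caller's background, is the authors' value and is read here only within its own list. Within the H4K12la lists the order of the genes was the same in both replicates, PFKM above GPI above SLC16A3. Within the HDAC1 lists it was GPI above ENO1 above ALDOA in both. By rank within the lists, most H4K12la gene-end peaks of these 10 genes were low. Those of PFKM were the exception, above 73.2% and 50.4% of their lists in replicates 1 and 2. How the gene-end peaks of all genes rank was not counted. The 7 H4K12la gene-end peaks had a median rank above 8.44% of their list, and the 7 HDAC1 gene-end peaks one above 44.7%.

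**Figure D3:**
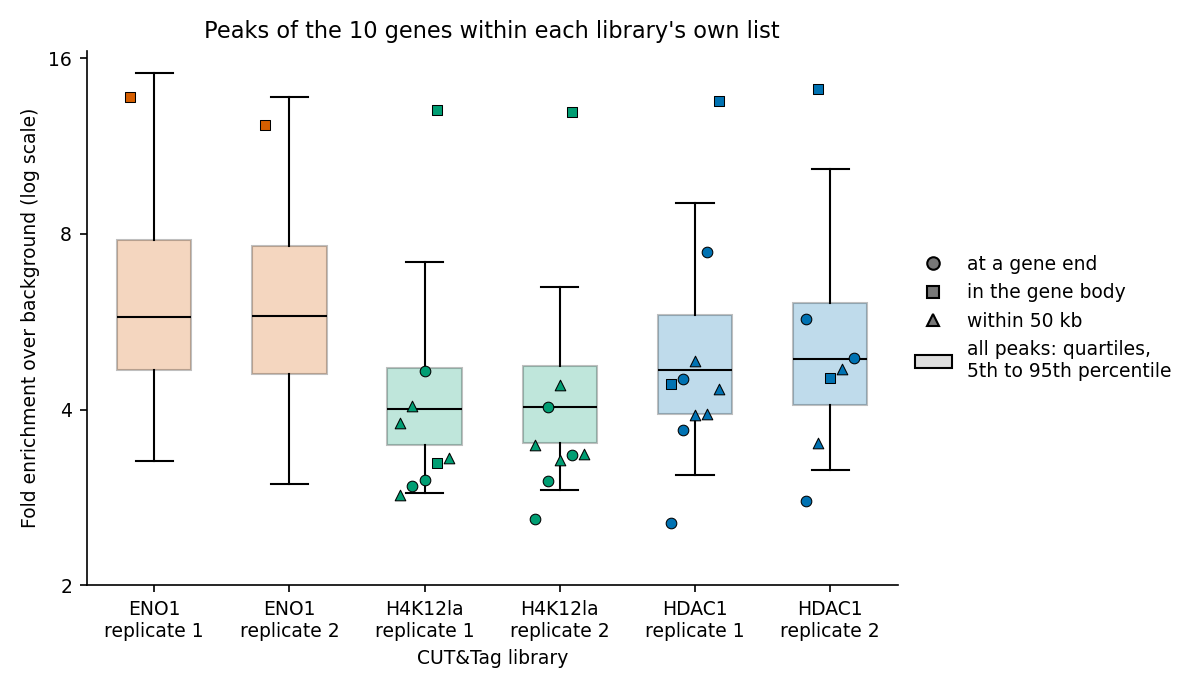
Fold enrichment (log scale) of every peak at the ends, in the body or within 50 kb of the 10 genes, over boxes of all peaks in the same library (quartiles, whiskers from the 5th to the 95th percentile). The body peaks of GPI, at 12.3-fold to 14.2-fold, stand far above the gene-end peaks of all 10 genes.

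At the head of the pathway, HK2 (chromosome 2, 74834127 to 74893359) encodes the hexokinase isoform typical of tumours, which traps glucose as its phosphate. It had no peak at its ends or in its body in any library. Lone H4K12la peaks lay in its flanks, at 3.79-fold in replicate 1 and 31.4 kb beyond the 3′ end, and at 3.48-fold in replicate 2 and 17.2 kb before the 5′ end. Neither was found in the other replicate. The nearest HDAC1 peaks lay 65.1 kb and 304 kb away in replicates 1 and 2.

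GPI (chromosome 19, 34359718 to 34402413) encodes glucose phosphate isomerase, which converts glucose phosphate to fructose phosphate, and was the gene with the most peaks. Its 5′ end carried HDAC1 at 7.45-fold and 5.71-fold in replicates 1 and 2, above 89.9% and 69.5% of the peaks of those lists. The HDAC1 summits lay 247 and 211 bp upstream of the annotated 5′ end, 36 bp from each other. H4K12la was present at 3.03-fold and 3.35-fold, above 8.44% and 17.7% of its lists, with summits 317 and 207 bp downstream of that end. The HDAC1 summits thus lay upstream of the annotated 5′ end and the H4K12la summits downstream of it. The GPI start site held in the promoter table is a more downstream one, at 34364992, and all 4 summits lay upstream of that one, by 5.52 and 5.49 kb for HDAC1 and by 4.96 and 5.07 kb for H4K12la. In replicate 1 the peaks of these targets did not overlap, the HDAC1 peak ending at 34359744 and the H4K12la peak starting at 34359901. In replicate 2 the H4K12la peak was 1273 bp wide and overlapped the HDAC1 peak.

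Another place in GPI had a peak in all 6 libraries, ENO1 included. It lay inside the gene, 32.3 kb from the 5′ end and 10.4 kb from the 3′ end, over 1306 bp common to all lists (chromosome 19, 34391361 to 34392666). In replicates 1 and 2 the ENO1 antibody gave 13.7-fold and 12.3-fold there. The H4K12la antibody gave 13.0-fold and 12.9-fold, and the HDAC1 antibody 13.5-fold and 14.2-fold. These peaks stood above 93.0% to 99.1% of the peaks of their lists, and the 6 summits fell within 20 bp. The peaks were also wide, 1306 to 1438 bp, where the median width of the lists was 402 to 543 bp. This was the only ENO1 peak in or within 50 kb of any of the 10 genes. A peak between the ends in all 6 libraries was found at 47 of 19866 protein-coding genes (0.237%), and at 1 of the 10. That count does not require the peaks to lie at the same place in the body, so it is not the share of genes with a common place. An ENO1 peak in the body in both replicates was found at 1 of the 10 and at 0.423% of all genes. Exons and introns were not resolved here, and whether the place would also peak without a specific antibody was not tested.

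**Figure D4:**
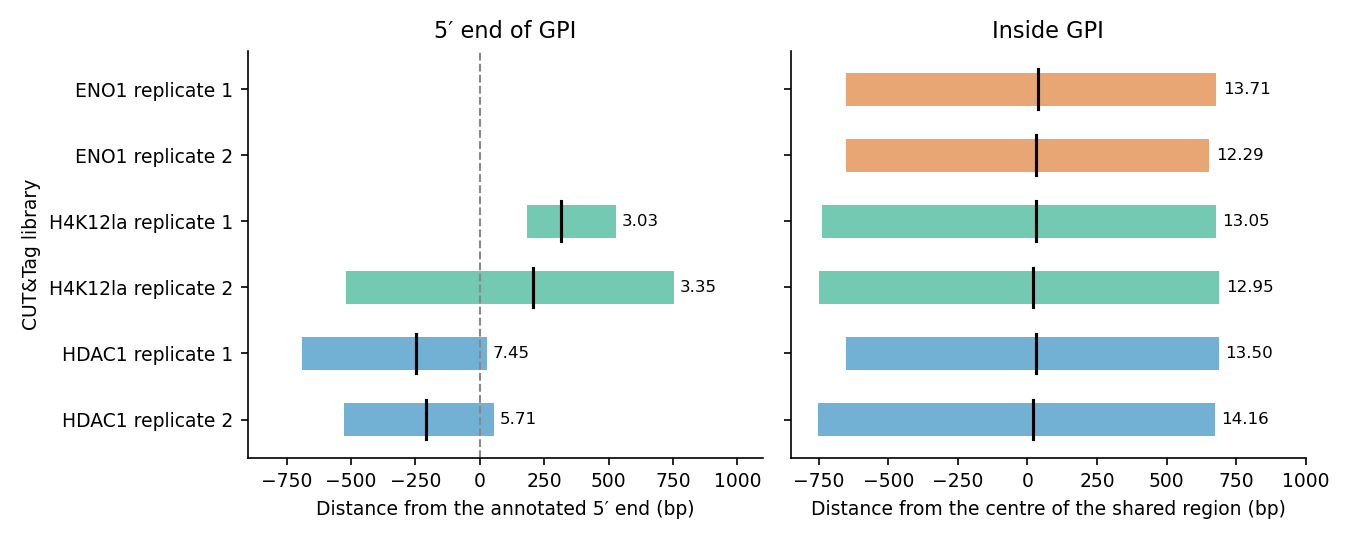
Peaks at the 5′ end of GPI (left, distance from the annotated 5′ end in bp) and inside GPI (right, distance from the centre of the region common to all lists in bp) in the 6 libraries. Bars span each peak, black ticks mark summits and numbers give fold enrichment. At the 5′ end the HDAC1 summits lie left and the H4K12la summits right of the annotated end; inside the gene all 6 summits coincide within 20 bp.

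PFKM (chromosome 12, 48105353 to 48146404) encodes the muscle-type subunit of phosphofructokinase, which catalyses the committed step. Its 5′ end carried H4K12la at 4.66-fold and 4.05-fold in replicates 1 and 2, above 73.2% and 50.4% of the peaks of those lists and the highest gene-end H4K12la values of the 10 genes. The peaks were 954 and 1057 bp wide, and their summits lay 15 and 46 bp downstream of the nearest annotated PFKM start sites. SENP1, a SUMO protease gene, has an annotated end under the same peaks, so they cannot be assigned to PFKM alone. The PFKM sequence printed above lay wholly under them. No HDAC1 peak came nearer than 536 kb and 570 kb in replicates 1 and 2. A further H4K12la peak, at 4.05-fold and 4.40-fold, lay 10.8 and 11.2 kb beyond the 3′ end, at an end of ASB8, a gene of the ankyrin repeat and SOCS box family.

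ALDOA (chromosome 16, 30064279 to 30070420) encodes aldolase A, which cleaves fructose bisphosphate, and carried HDAC1 at 3.69-fold and 2.79-fold in replicates 1 and 2, above 17.0% and 2.15% of those lists. These peaks lay inside the annotated gene but just upstream of its most downstream start site in the promoter table, at 30065760, with summits 308 and 467 bp before it. They were counted as gene-end peaks only because they reached to within 1 kb of the annotated 5′ end. Their summits lay 1173 and 1014 bp from that end, outside the 1 kb window. LOC112694756, a protein-coding entry that overlaps ALDOA, also covers them. No H4K12la peak lay at ALDOA. The nearest H4K12la peak was 41.9 kb beyond the gene in both replicates, at 2.85-fold and 3.27-fold, and fell at an end of GDPD3, a glycerophosphodiester phosphodiesterase gene.

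GAPDH (chromosome 12, 6534517 to 6538371) encodes the dehydrogenase that makes NADH in the route and is often used as an expression control. It had 1 peak, of HDAC1 in replicate 1, at 2.56-fold and above only 0.978% of that list, with a -log10 q of 2.82. The peak lay 284 bp upstream of the gene and overlapped the divergent noncoding gene GAPDH-DT, so it cannot be assigned to GAPDH alone. In replicate 2 the nearest HDAC1 peak was 63.5 kb away, and the nearest H4K12la peaks were 82.3 kb and 125 kb away in replicates 1 and 2. PKM (chromosome 15, 72199029 to 72231591), which encodes pyruvate kinase M, had 1 peak, of H4K12la in replicate 2 at 3.35-fold, 5.65 kb upstream. Outside the 50 kb limit, HDAC1 peaks lay 80.5 and 80.6 kb from PKM in replicates 1 and 2, at 5.67-fold and 5.96-fold, and an H4K12la peak of replicate 1 lay 80.5 kb away at 3.85-fold.

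The gene ENO1 (chromosome 1, 8861000 to 8878686) encodes enolase 1, which makes phosphoenolpyruvate and is the protein bound by the ENO1 antibody. It carried HDAC1 at 4.51-fold and 4.90-fold in replicates 1 and 2, near the middle of those lists (above 44.7% and 50.6% of their peaks). The summits lay 207 and 319 bp upstream of the start site, and the peaks stopped 117 and 52 bp short of it. ENO1-AS1, an antisense gene, overlaps these peaks, so they cannot be assigned to ENO1 alone. The bases nearest to the start in the printed ENO1 sequence therefore lay outside the HDAC1 peaks. No ENO1 peak came nearer to the gene than 1205 kb and 5679 kb, and no H4K12la peak nearer than 148 kb and 134 kb, in replicates 1 and 2. An HDAC1 peak of replicate 1 (4.85-fold, within RERE, a transcriptional corepressor gene) lay 49.2 kb beyond the 3′ end, just inside the 50 kb limit, and was not found in replicate 2.

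Both lactate dehydrogenase genes lacked a replicated peak. LDHA (chromosome 11, 18394563 to 18408425), whose subunit favours the reduction of pyruvate to lactate, had an H4K12la peak over its start site in replicate 2 at 3.02-fold, above 7.44% of that list, with the summit 265 bp upstream. In H4K12la replicate 1 the nearest peak lay 10.2 kb upstream at 3.31-fold, above 17.4% of that list. An HDAC1 peak of replicate 1 at 4.34-fold lay 10.6 kb upstream, overlapping that distal H4K12la peak, and HDAC1 replicate 2 had none within 118 kb. LDHB (chromosome 12, 21635342 to 21657842), whose subunit favours the return of lactate to pyruvate, was the only one of the 10 genes without a peak of any library in its body or within 50 kb. Its nearest peaks were of H4K12la, 133 kb away in both replicates at 5.37-fold and 5.84-fold, while HDAC1 lay 886 and 3593 kb away and ENO1 3538 and 1544 kb away. At least 1 peak of some library within 50 kb was found for 9 of the 10 genes and for 65.1% of all protein-coding genes.

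SLC16A3 (chromosome 17, 82217934 to 82240086) encodes MCT4, the monocarboxylate transporter that exports lactate. H4K12la was present at its annotated 5′ end at 2.95-fold and 2.60-fold in replicates 1 and 2, above 6.54% and 1.23% of those lists, with summits 24 bp upstream and 500 bp downstream of it. The nearest SLC16A3 start site in the promoter table, at 82228435, lay 10525 and 10001 bp downstream of these summits. HDAC1 lay at another place, inside the gene, 6.48 and 6.46 kb from the 5′ end, at 4.43-fold and 4.53-fold. Those HDAC1 peaks started at the same base and differed by 1 bp in width, at 631 and 632 bp. They lay 4.02 and 4.04 kb upstream of that start site. An H4K12la peak of replicate 1 alone overlapped them, at 3.24-fold. SLC16A3 thus carried both H4K12la and HDAC1 in both replicates, but at separate places, and of the other members only GPI carried both. The share of all genes that carry both at an end or in the body was not counted. A pair of further HDAC1 places beyond the 3′ end, within CSNK1D, a casein kinase gene, had 3.92-fold and 3.50-fold, and 3.92-fold and 4.70-fold, in replicates 1 and 2.

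Counted over the gene bodies and 50 kb on either side, ENO1 had a peak in both replicates at 1 of the 10 genes (1.57% of all genes), H4K12la at 6 (30.8%) and HDAC1 at 4 (26.4%). The 6 include HK2 and LDHA, where the replicates had separate peaks. With H4K12la peaks that overlap between replicates the count was 4 (26.9% of all genes). In all, 37 peaks were collected, 2 of ENO1, 18 of H4K12la and 17 of HDAC1, and 28 of them overlapped a peak of the other replicate. By place, 12 of 14 gene-end peaks, 8 of 9 body peaks and 8 of 14 flank peaks were supported in this way. The body peaks came from 2 genes only, GPI and SLC16A3. Over whole lists, not split by place, 65.5% and 47.3% of H4K12la peaks and 54.1% and 67.9% of HDAC1 peaks were supported, in replicates 1 and 2. For ENO1 the shares were 49.1% and 64.6%. The lower value was that of the longer list of each target. Between supported peaks of replicates the summits of HDAC1 were 112 bp apart at ENO1, 36 bp at GPI and 159 bp at ALDOA, against a median of 66 bp over both lists. Those of H4K12la were 224 bp apart at PFKM, 110 bp at GPI and 524 bp at SLC16A3, against a median of 133 bp.

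**Figure D5:**
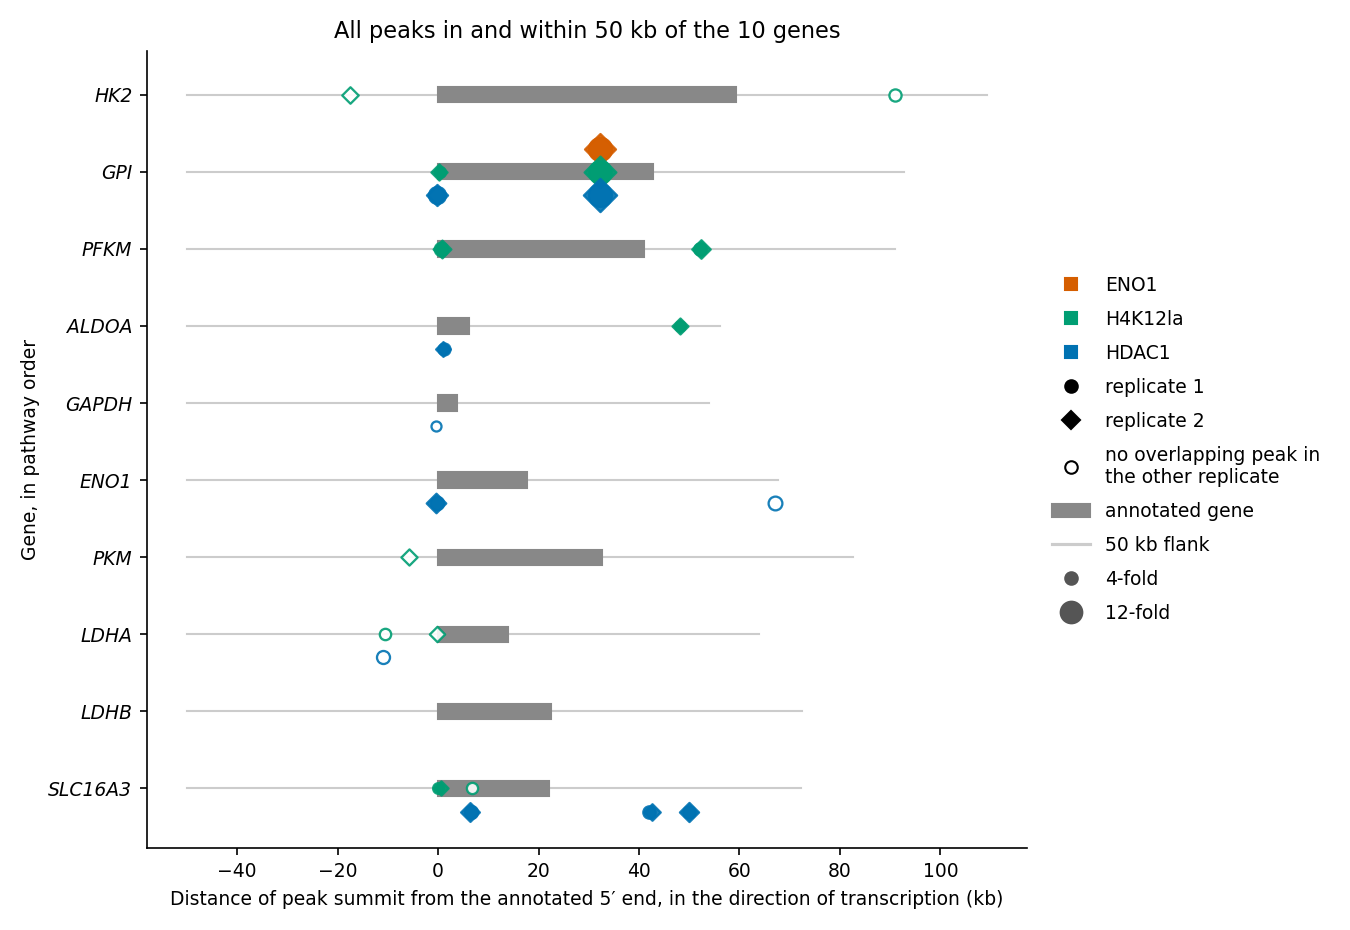
Summits of all 37 peaks in and within 50 kb of the 10 genes, by distance from the annotated 5′ end in the direction of transcription (kb). Colours give the target, circles and diamonds replicates 1 and 2, areas the fold enrichment, and open symbols peaks with no overlapping peak in the other replicate. Gene-end peaks gather at 5′ ends, ENO1 is present in GPI alone, and LDHB has no peak.

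The rest of the pathway was described from 55 other genes of glycolysis, gluconeogenesis and the handling of pyruvate and lactate. H4K12la marked the ends of 5 of them in both replicates (9.09% of the list, against 10.5% of all genes), HDAC1 of 4 (7.27%, against 8.18%) and ENO1 of 0. In HDAC1 replicate 1 alone the number was 8 of 55, and 14.8% of all genes had a gene-end peak there. None of these shares lay far from that of all genes. No other enzyme of the glycolytic route itself was among these genes marked at their ends. BPGM (H4K12la replicate 2) and the lactate transporter gene SLC16A1 (HDAC1 replicate 1) each had a gene-end peak in a single library. PGAM1 had gene-end peaks of H4K12la in replicate 2 alone and of HDAC1 in replicate 1 alone. PFKP, another phosphofructokinase gene, had no gene-end peak. In its body PFKP carried H4K12la and HDAC1 in both replicates, and ENO1 in replicate 1 alone. DLD, which encodes a subunit of the pyruvate dehydrogenase complex, carried H4K12la at 4.17-fold and 6.18-fold and HDAC1 at 7.80-fold and 4.50-fold in replicates 1 and 2. DLAT, the acetyltransferase of the same complex, carried H4K12la at 5.66-fold and 4.35-fold. GCKR, the liver regulator of glucokinase, carried H4K12la at 3.56-fold and 3.19-fold and HDAC1 at 4.02-fold and 4.00-fold, all 4 summits within 205 bp upstream of the start.

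MPC1, a subunit of the mitochondrial pyruvate carrier, had H4K12la at 3.33-fold and 4.04-fold, and PCK2, the mitochondrial phosphoenolpyruvate carboxykinase, at 2.94-fold and 3.03-fold, but in neither gene did the peaks of the replicates overlap. PC, the pyruvate carboxylase that feeds gluconeogenesis, carried HDAC1 at 5.55-fold and 6.48-fold. GPD1, a glycerol phosphate dehydrogenase, carried it at 4.05-fold and 5.03-fold at the end next to COX14, whose end holds the same peaks.

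Genes with the most similar gene-end values over the 6 libraries were sought by Euclidean distance of log2 fold, with 0 for no peak. For ENO1 they were ATXN7L3 (distance 0.0299; HDAC1 at 4.43-fold and 4.93-fold in replicates 1 and 2) and PHKA2 (0.0320). For PFKM they were RICTOR (0.00431; H4K12la at 4.65-fold and 4.04-fold) and WDR5B (0.0120). GPI, with 2 targets, had no neighbour as near, YWHAG at 0.225 and TMEM87A at 0.243. MNT (0.108) and METTL26 (0.117) were nearest to ALDOA, and AIFM2 (0.0947) and CUEDC1 (0.111) to SLC16A3.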

How the data were processed

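CUT&Tag libraries of HepG2 cells for ENO1, H4K12la and HDAC1, 2 replicates each, took their group and replicate number from the sample titles. Per the submitters' processing notes, FastQC, Bowtie2, MACS2 and deepTools were used with build hg38; their versions and settings, any control library and the treatment of reads with several matches were not given in the sources used here. MACS2 narrow peak lists were deposited, 1 per library. For each peak the authors' lists give a fold enrichment (a ratio to background within that library, not scaled between libraries), the -log10 of p and of q, and a score that truncates 10 times the latter. No list holds a -log10 q below 2, a q of 0.01. Depth cannot be read from these lists.

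Peaks outside the 24 chromosomes were left out. Genes came from the RefSeq table of GRCh38.p14, without 718 entries of other sequences (those after positions first decrease along a chromosome). Start sites, strands and promoters came from the RefSeq promoter table. A peak counted at a gene end when 1 bp of it lay within 1 kb of either annotated end, and as supported when it shared 1 bp with a peak of the other replicate. Background shares count all protein-coding genes in the same way, and no test was made. The counting was checked on simulated peaks, with 200 of 200 planted genes recovered. The genes, the list of 55 and the rule for naming genes (all 10, listed genes and neighbours with peaks in both replicates, and the 2 most similar genes) were chosen with earlier results of these data known. Alternatives covered window, flank, q, list length, summit, overlap and single replicates. Analyses used Python 3.11.15 with pandas 2.3.3 and numpy 2.4.6.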

Additional observations from a re-analysis of the deposited data

How the results depend on the processing

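For H4K12la and HDAC1, 36 of 48 recomputed counts stayed within 1.5 times the reported count. The threshold on peaks moved most of the others. At a -log10 q of 5 or more, H4K12la was left at the ends of 1 of the 10 genes (PFKM) and of 3 of the 55 other genes (6.11% of all genes), and within 50 kb of 2 of the 10 (18.3%). With the 1189 strongest peaks of each list, H4K12la was left at the ends of 0 of the 10 genes (1.16% of all genes) and within 50 kb of 1 (GPI; 4.11%). HDAC1 was left at the ends of 1 (GPI; 1.47%) and within 50 kb of 2 (5.84%), and each target at the ends of 0 of the 55. Fewer peaks enter these settings by construction. Within 500 bp, and with overlapping replicate peaks, H4K12la was at 3 of the 55, MPC1 and PCK2 dropping out (9.45% and 10.2% of all genes). ALDOA lost its HDAC1 count within 500 bp and when the summit had to lie in the window, leaving 2 genes (7.45% and 7.79% of all genes). For ENO1 the gene-end counts were 0 to begin with, which stricter settings cannot lower, and its list of replicate 2 holds 1189 peaks in all, so these settings say nothing of its stability. Replicates alone gave 3 to 4 of the 10 genes for H4K12la and for HDAC1. Of the 55 they gave 7 for H4K12la and 4 to 8 for HDAC1, where replicate 1 alone gave the 8. Over all genes, replicates 1 and 2 alone gave 13.5% and 19.5% for H4K12la, and 14.8% and 10.1% for HDAC1. The settings for the 55 were added after the data were seen. No paired analysis was possible because the counts come from no test.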

Other observations

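Glycolytic genes have many processed pseudogenes. Of 86 pseudogenes in the RefSeq table named after the 10 genes, 65 of them of GAPDH, 1 overlapped a peak (1.16%), against 394 of all 16860 pseudogenes of the table (2.34%). It was ENO1P1 (chromosome 1, 236483098 to 236484905). It held HDAC1 at 5.85-fold and 5.18-fold in replicates 1 and 2 and H4K12la at 3.84-fold in replicate 1, and no ENO1 peak. The 86 pseudogenes had a median length of 1.26 kb and all pseudogenes one of 0.709 kb, so the shares are not matched for length. The search for pseudogenes was added after the values of the genes were seen.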
